A study of Mus musculus with 6 samples.

Results

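The transcripts described here are those of 9 B cell and immunoglobulin genes, out of 33924 genes listed for the RPE/choroid, the pigmented epithelium behind the retina together with the vascular layer beneath it. They were taken by symbol: the antibody chain genes Ighm, Ighg and Igkc, the J chain gene, the B cell receptor subunits Cd79a and Cd79b, the surface protein gene Ms4a1, and Mzb1 and Xbp1, both tied to antibody secretion. All 9 were found, 7 of them under these symbols, the J chain gene under its older symbol Igj, and Mzb1 under the older symbol 2010001M09Rik. The libraries were poly(A)-selected RNA, depleted of rRNA, of C57BL/6J mice with no transgene or treatment. There were 3 from young and 3 from aged animals, each labelled male, and 2 eyes were pooled for a sample. The sample titles give ages of 1 to 2 months for the young and 20 to 24 months for the aged mice, and the age field of the aged mice gives 22 to 24 months. The methods of the study describe animals of both sexes and a slightly older young group than the labels do. The value used for each gene was the authors' mean normalized count over all 6 libraries, so that no value for a single mouse, no spread and no difference between the ages is given here, and neighbouring genes in any order of levels cannot be said to differ. The read depth of the single libraries is unknown.

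B cells carry an antibody on their surface as the antigen-sensing portion of the B cell receptor, and on activation some become plasma cells that secrete the same antibody in large amounts. An antibody is built of heavy chains, whose constant region sets the class (IgM, IgG and others), and of light chains of the kappa or lambda kind, and the J chain joins the units of secreted IgM and IgA. B and plasma cells are also found in connective and vascular tissue outside the lymphoid organs, and a sample that includes choroid includes its stroma and the blood held in its vessels.

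Among the antibody chains and their partners, Ighm, which encodes the constant region of IgM, was the most abundant, with a mean normalized count of 1826. That lay above 80.7% of the 25517 genes with a mean above 0. Igkc, the constant region of the kappa light chain, had a mean normalized count of 371, above 56.0% of those genes, and the J chain gene had 420, above 57.6%. Genes were also set beside each other per kilobase, because longer transcripts give more reads. The methods of the study, however, start from TPM, an abundance measure already divided by transcript length, which was turned into normalized counts by a total count method. The paper also ran DESeq2 on these libraries, and describes its input for the libraries without poly(A) selection as read counts. Among antibody gene segments the lowest means above 0 were 0.169 (kappa variable) and 0.174 (heavy variable). That is near the 0.167 that 1 normalized read in 1 library adds, as with read counts not scaled to length. The scaling of all genes was not tested. If the deposited mean is already scaled to length, it is the value to compare. Division by length then corrects for it a second time. Over 15552 genes with a coding transcript and a mean of at least 10, the median mean normalized count was 728 in the 3889 genes with the shortest transcripts and 1008 in the 3886 with the longest, and per kilobase it was 547 and 152, which does not settle the point. Both scales are given below. Per kilobase of the longest protein-coding transcript, Ighm stood at 1075 (1698 bases), Igkc at 697 (532 bases) and the J chain gene at 301 (1393 bases). The order of Igkc and the J chain gene was therefore opposite on the scale per kilobase and on the mean count. On the scale per kilobase the kappa chain reached 0.648 of the IgM heavy chain, against 0.203 in mean counts. The J chain gene reached 0.230 of Ighm in mean counts and 0.280 per kilobase, but 0.688 per kilobase of coding length and 0.167 with the longest transcript of any kind, so this ratio rests on the length chosen.

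The 3 genes lie apart in GRCm38. Ighm (ENSMUSG00000076617) is at chr12:113418558-113422730 on the minus strand, Igkc (ENSMUSG00000076609) at chr6:70726435-70726966 on the plus strand and the J chain gene (ENSMUSG00000067149) at chr5:88519809-88527891 on the minus strand. Each was unlike the rest of the annotated transcripts in the sense that 100% of its stretches of 50 bases occurred in no other gene. Igkc lies within the span of the long non-coding RNA gene Gm30211 but shares 0 exonic bases with it.

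**Figure D1:**
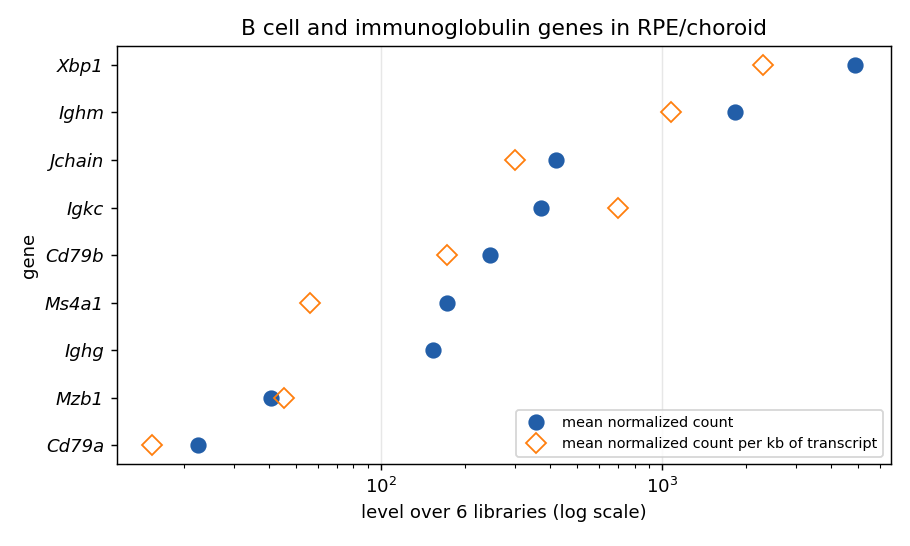
Level of each of the 9 genes on a log axis, with the mean normalized count over the 6 libraries as filled circles and the same value per kilobase of the longest protein-coding transcript as open diamonds (no diamond for Ighg, which has no length). Xbp1 at 4883 and Ighm at 1826 sit to the right of the other genes in mean count, and Igkc and Mzb1 are the genes whose diamond lies to the right of the circle.

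IgG transcripts were listed under 3 symbols. The gene named Ighg had a mean normalized count of 154, above 47.2% of the genes above 0, and Ighg2c and Ighg1, the constant regions of the IgG2c and IgG1 subclasses, had 89.9 and 29.7. Ighm was 11.9 times Ighg and 6.68 times the 3 IgG rows summed (273). Ighg2b and Ighg3 had no row of their own, so this sum holds no separate value for them. Ighg has no gene of its own name in the GENCODE annotation of GRCm38, so that which subclass its reads came from is not known and it was given no position and no level per kilobase. Some of the subclass genes are near copies of each other along part of their length, which bears on how reads can be divided among them. The longest run of bases that the Ighg2c and Ighg2b transcripts share is 78 bases long, and it is printed below with the same stretch of Ighg1 and Ighg3 for comparison. All are in exon 3 of the transcript, on the minus strand of chromosome 12, at chr12:113287869-113287946 in Ighg2c, chr12:113306869-113306946 in Ighg2b, chr12:113329465-113329542 in Ighg1 and chr12:113360145-113360222 in Ighg3. Capitals mark the bases that differ from the run shared by Ighg2c and Ighg2b.
Ighg2c and Ighg2b: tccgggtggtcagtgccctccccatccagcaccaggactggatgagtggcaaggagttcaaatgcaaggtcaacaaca
Ighg3: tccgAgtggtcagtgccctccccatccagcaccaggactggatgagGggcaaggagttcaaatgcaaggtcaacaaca
Ighg1: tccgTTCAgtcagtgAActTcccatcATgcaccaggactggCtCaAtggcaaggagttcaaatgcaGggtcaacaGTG
Over these 78 bases Ighg3 differed at 2 positions and Ighg1 at 16. The longest runs that Ighg1 shared with the other subclass genes were 28 to 37 bases in these transcripts. Over all annotated transcripts, between 94.5% (Ighg2c) and 99.6% (Ighg1) of the stretches of 50 bases of each IgG subclass gene were found in no other gene. Of those of Ighg1, 0.393% also occurred in Ighg2b, so longer shared runs exist outside the transcripts compared above.

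The genes and gene segments of the antibody loci were also counted as a whole. Of 153 rows whose symbol starts with Igh, Igk or Igl and belongs to an antibody gene, 32 were at 0 and 15 had a mean normalized count of at least 10. They summed to 3077, which was 0.00754% of the total of 40816668 over all genes, and Ighm alone was 59.4% of that sum. Light chain constant regions with a row were mostly kappa: Igkc was 5.50 times the lambda rows Iglc2 (43.1) and Iglc3 (24.3) together, and lambda was 15.4% of the constant light chain count. Iglc1, another lambda constant region gene, had no row, so lambda was counted without it. Heavy chain constant regions (2100 over 4 rows) were 4.79 times the light chain constant regions (438), as mean counts not divided by length.

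Variable segments carry the antigen-binding portion and are joined to the constant region in each B cell. Most of their listed rows were below 10. The heavy chain had 37 variable rows, of which 7 were at 0 and 0 reached 10, with Ighv9-3 at 5.78 as the highest, and their sum (51.0) was 0.0243 of the heavy constant count. The kappa chain had 100 variable rows, of which 24 were at 0 and 6 reached 10. Their sum (401) was 1.08 times Igkc, so over the listed rows the kappa variable and constant counts were near each other whereas the heavy ones were not. These are again mean counts not divided by length. Segments with no row could not be counted, and heavy joining or diversity segments had 0 rows. Whether the contrast holds over all segments is therefore not known. Kappa joining segments were 5 rows between 1.17 and 2.65, and the 3 lambda variable rows were Iglv1 at 58.2, Iglv3 at 12.3 and Iglv2 at 6.67. Igll1, the surrogate light chain of B cell precursors in the bone marrow, was listed at 0.

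**Figure D2:**
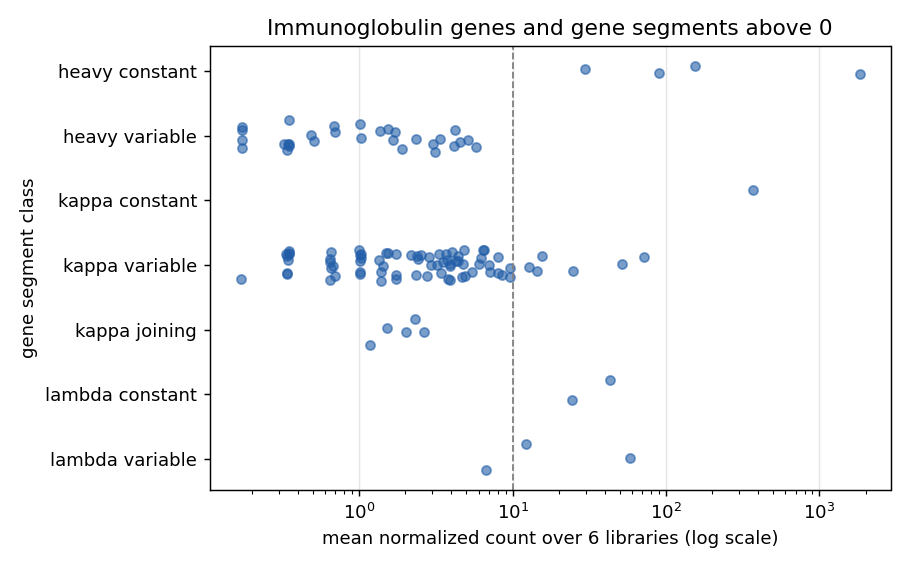
Mean normalized count over the 6 libraries (log axis) of each antibody gene or gene segment above 0, by class, with a random vertical offset to separate the points and a dashed line at 10. The 32 rows at 0 are not drawn. No heavy chain variable segment lies right of the line, and Ighm at 1826 is the rightmost point.

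The kappa variable count was uneven. Igkv3-4 (72.0) and Igkv3-2 (51.4) held 30.8% of it, followed by Igkv17-121 (24.7), Igkv2-137 (15.6), Igkv1-117 (14.3) and Igkv1-135 (12.8). The leading pair are closely related segments, aligned without gaps over 360 bases with 91.4% identity and 31 differing bases, and the middle 120 bases of that alignment are printed to show how far a read could tell them apart. They come from exon 2, at chr6:70672138-70672257 for Igkv3-4 and chr6:70698828-70698947 for Igkv3-2, both on the plus strand of GRCm38, with the 13 differing bases in capitals.
Igkv3-4: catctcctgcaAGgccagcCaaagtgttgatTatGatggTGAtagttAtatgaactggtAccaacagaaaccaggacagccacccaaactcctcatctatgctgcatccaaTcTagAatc
Igkv3-2: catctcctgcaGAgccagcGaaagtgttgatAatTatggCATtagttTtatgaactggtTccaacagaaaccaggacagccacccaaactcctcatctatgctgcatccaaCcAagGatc
Of the stretches of 50 bases in Igkv3-4, 65.9% occurred in no other gene, and 78.7% of those in Igkv3-2. The share was 44.0% in Igkv2-137, 50.1% in Igkv1-117, 63.5% in Igkv1-135 and 68.6% in Igkv17-121. The value of a single kappa segment is therefore uncertain.

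The receptor that carries surface antibody signals through Cd79a and Cd79b, which form a pair in the B cell membrane. Their levels were far apart. Cd79b had a mean normalized count of 246, above 51.4% of the genes above 0, and Cd79a had 22.4, above 33.0%, the lowest of the 9 genes. The ratio of Cd79b to Cd79a was 11.0 in mean counts and 11.2 per kilobase (172 over 1431 bases against 15.3 over 1457 bases), and the gap was thus about as large on either scale. Cd79a (ENSMUSG00000003379) is at chr7:24897381-24902197 on the plus strand and Cd79b (ENSMUSG00000040592) at chr11:106311341-106314762 on the minus strand. Of the stretches of 50 bases, 91.7% in Cd79a and 100% in Cd79b occurred in no other gene, and 8.31% of those in Cd79a were shared with Gm32220.

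Ms4a1, the gene of the B cell surface protein CD20, had a mean normalized count of 172, above 48.2% of the genes above 0. Its transcript is the longest of the members (3075 bases), and per kilobase it stood at 56.0, which was 3.65 times Cd79a. In mean counts that ratio was 7.70. Ms4a1 (ENSMUSG00000024673) is at chr19:11249675-11266241 on the minus strand, where the gene 4930526L06Rik on the other strand overlaps its span but shares 0 exonic bases.

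The remaining genes belong to the secretory machinery. Mzb1, a protein of the endoplasmic reticulum that assists antibody assembly in B and plasma cells, had a mean normalized count of 40.8, above 37.1% of the genes above 0, and 45.1 per kilobase (904 bases), which was 2.94 times Cd79a against 1.82 times in mean counts. Its gene (ENSMUSG00000024353) overlaps SPATA24 on the same strand in 695 exonic bases, and 46.5% of its stretches of 50 bases occurred in no other gene, so its value is uncertain. Xbp1, a transcription factor of the unfolded protein response that plasma cells require, had the highest level of the 9, with a mean normalized count of 4883, above 93.3% of the genes above 0, and 2293 per kilobase over 2129 bases. It made up 60.0% of the count of the 9 genes together, and the other members summed to 3252, or 0.00797% of the total over all genes. Xbp1 (ENSMUSG00000020484) is at chr11:5520659-5525893 on the plus strand. It is used by many secretory cell types besides plasma cells, so its level cannot be assigned to B lineage cells in bulk tissue.

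The wider B lineage lists put these values beside genes used to mark these cells, not all of them restricted to B or plasma cells. Of 16 genes of the B cell surface and lineage, 14 had a mean normalized count of at least 10. Their median was 23.9 per kilobase, below the median of 94.6 over all genes above 0, and 54.4 as a mean normalized count, below the 211 over all genes. Per kilobase they ranged from 0.956 for Pax5, the transcription factor that defines B cells, to 243 for Blnk, an adaptor of receptor signalling. The genes with a mean normalized count below 10 were Pax5 (7.65) and Fcer2a, the low-affinity IgE receptor CD23 (8.75). Fcer2a stood at 3.90 per kilobase. Of 12 plasma cell genes, 11 reached 10, with a median of 71.9 per kilobase and 185 as a mean normalized count. Per kilobase of coding length the medians were 196 for the plasma cell and 46.1 for the B cell list. Per kilobase of transcript the lowest plasma cell gene was Tnfrsf17, the BCMA receptor of plasma cells, at 11.7. The highest on that scale was Creld2, a stress-response protein of the endoplasmic reticulum found in many cells, at 1305. On coding length the highest was Sdc1, at 3705 against 1697 for Creld2. Sdc1 was also highest as a mean normalized count, at 3457 against 1782. After Creld2 and Sdc1 the next plasma cell gene per kilobase was Fkbp11, at 237. In bulk tissue the Sdc1 and Creld2 values cannot be assigned to plasma cells, and the list median is not a measure of plasma cell transcript alone. A further list of 12 genes held antibody constant regions and the surrogate light chain gene Igll1. Of these, 6 matched a row and 4 reached 10. The median was 32.9 per kilobase over the 6 and 62.5 over the 4, with the highest in Ighg2c at 74.1. Igll1 and Ighe, the IgE constant region, which RefSeq lists under the older symbol Gm900, were at 0, and the 6 genes of that list with no matched row were not analysed here.

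The 2 lists that share machinery with other cells were higher. All 12 genes of B cell receptor signalling reached 10, with a median of 137 per kilobase (566 as a mean normalized count) and the highest in Ptpn6, a phosphatase used throughout the blood lineages, at 601. All 15 partners and endoplasmic reticulum targets of Xbp1 reached 10, with a median of 2089 per kilobase beside 2293 for Xbp1, and 6625 as a mean normalized count beside 4883 for Xbp1. Ern1, the enzyme IRE1 that splices Xbp1 mRNA, was lowest at 97.2, and Hspa5, the chaperone BiP, was highest at 8180.

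**Figure D3:**
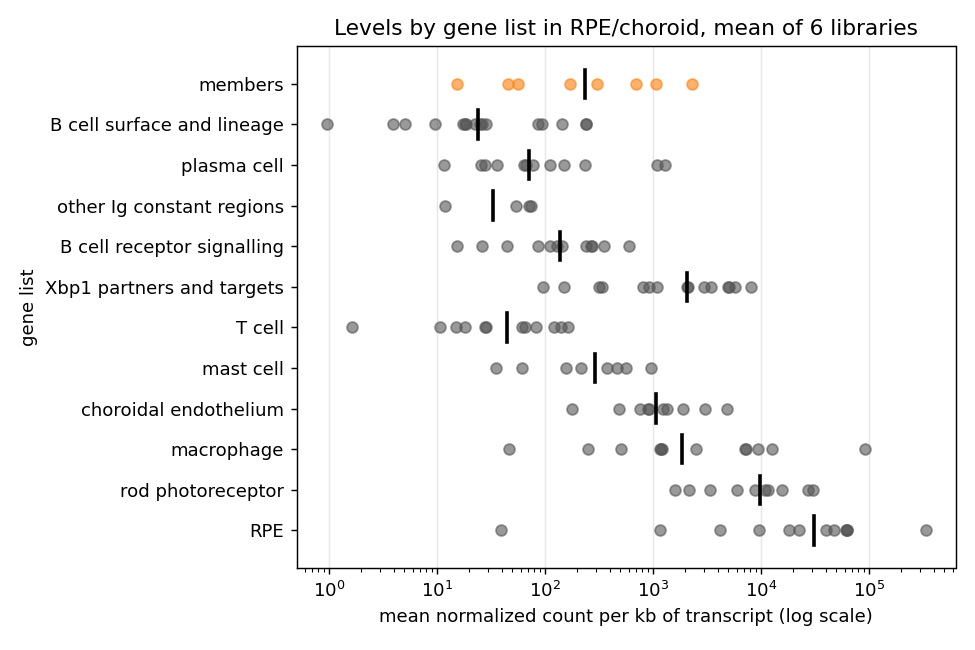
Mean normalized count per kilobase of transcript over the 6 libraries (log axis) for the 8 members with a length (orange) and the genes of each marker list (grey), with the median of each as a black bar and genes at 0 not drawn. The B cell, plasma cell and T cell medians of 23.9, 71.9 and 45.0 lie left of the macrophage median of 1855 and the RPE median of 31084.

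Markers of other cell types place the B lineage levels in the tissue. RPE genes had a median of 31084 per kilobase over 12 genes. They ranged from Best1 at 39.3 to Ttr, the carrier of thyroid hormone and retinol, at 335233. The defining markers of the labelled tissue were thus present, though Best1 lay below the median of 94.6 over all genes above 0. Rod photoreceptor genes, which belong to the neural retina removed at dissection, had a median of 9860 per kilobase over 10 genes, with the lowest in Cnga1 at 1612. Macrophage genes had a median of 1855 per kilobase over 12 genes, from Cd163 at 46.7 to Lyz2 at 92625, endothelial genes 1079 over 10 genes, from Cdh5 at 179 to Cldn5 at 4872, and mast cell genes 294 over 8 genes, from Ms4a2 at 35.2 to Cma1 at 972. Of the T cell genes 11 of 12 were at 10 or more, and their median of 45.0 per kilobase (89.6 as a mean normalized count) lay between those of the B cell and plasma cell lists on both scales, from Cd3e at 1.64 to Trbc2 at 164. Ighm at 1075 per kilobase stood beside the endothelial median of 1079, though in mean normalized counts it was 1826 against 4018, while the receptor and surface genes Cd79b, Ms4a1 and Cd79a (172, 56.0 and 15.3) per kilobase fell within the range of the T cell genes or close to it. As mean normalized counts the medians were 76797 for RPE, 22770 for rod, 4744 for macrophage and 461 for mast cell genes, so the order of these lists was the same on that scale. In bulk tissue fewer cells of a type and less RNA in each cell cannot be told apart, and the share of the retina, blood or stroma in these values was not tested.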

How the data were processed

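The samples were poly(A) RNA libraries of RPE/choroid, 3 per age group. According to the methods of the authors the reads were trimmed with BBDuk and aligned with STAR to Ensembl GRCm38 transcripts, and TPM values were obtained with Sailfish and turned into normalized counts by a total count method. TPM is divided by transcript length. The lowest antibody segment means were near 1 normalized read in 1 library, but whether all deposited means are still proportional to length was not tested. Levels are given with and without division by length. The labels name a stranded total RNA kit with rRNA removal, and the paper describes these libraries as both depleted of rRNA and selected for poly(A). The value used is a signal per gene: the authors' mean normalized count over all 6 libraries, as deposited. The same deposited table holds the authors' own DESeq2 comparison of the ages (log2 fold changes, standard errors, Wald statistics, p-values and adjusted p-values). Those columns were not used, and with no values per library no test was made.

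Members and lists were chosen with earlier results of these data known. Named were all members, the highest and lowest gene of each list, the antibody rows by count and range, and defining markers at 0. Some members of these lists are not reported here. Fcer2a, Ighg1, Ighg2c and the single variable segments were named after their values were seen. Older symbols were matched through RefSeq synonyms. Lengths, positions and sequences came from GENCODE M21 (GRCm38), in which 97.1% of the genes with a mean of at least 10 had a length. The length is that of the longest transcript with a coding sequence. Stretches of 50 bases (all windows of a gene's transcripts) were compared among all annotated transcripts. Coding length, other thresholds on the mean count and, for lists, members of at least 10 were alternatives; those added after the data were seen are named with their values. The functions were tested on simulated data. Python 3.11.15, numpy 2.4.6, pandas 2.3.3 and matplotlib 3.10.9 were used.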

Additional observations from a re-analysis of the deposited data

How the results depend on the processing

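No test was made, so the alternatives move levels only, and leaving out a replicate or pairing the samples was not possible. No paired analysis was possible because only a mean over all libraries was used. The order of the 8 members with a length changed for 0 of them with coding length, and for 0 with the longest transcript of any kind, an alternative chosen after seeing the data. Per kilobase of coding length, the level was 6096 for Xbp1, 1280 for Ighm, 1159 for Igkc, 880 for the J chain gene, 284 for Cd79b, 197 for Ms4a1, 72.3 for Mzb1 and 33.9 for Cd79a. With the longest transcript of any kind the J chain gene was at 179, and the other members kept their length. Among genes of at least 10, the percentile was 90.7 for Xbp1, 73.3 for Ighm, 41.4 for the J chain gene, 39.2 for Igkc, 32.9 for Cd79b, 28.4 for Ms4a1, 27.1 for Ighg, 13.1 for Mzb1 and 7.49 for Cd79a. Among all genes listed it was 95.0, 85.4, 68.1, 66.9, 63.5, 61.0, 60.3, 52.7 and 49.6 in the same order. Per kilobase in place of mean counts, the ratio was 0.648 for Igkc to Ighm, 0.280 for the J chain gene to Ighm, 11.2 for Cd79b to Cd79a, 3.65 for Ms4a1 to Cd79a and 2.94 for Mzb1 to Cd79a, and with coding length, an alternative chosen after seeing the data, 0.905, 0.688, 8.40, 5.82 and 2.14 in the same order. With the longest transcript of any kind, also chosen then, the J chain ratio was 0.167, and the other ratios were as per kilobase. Across these 3 length scales 0 ratios crossed 1. With only members of at least 10, the median per kilobase was 25.6 for the B cell list, 77.0 for plasma cells, 62.5 for the further constant regions and 61.5 for T cells. The next 2 alternatives for list medians were also chosen after seeing the data. Per kilobase of coding length the median was 46.1 for the B cell list, 196 for plasma cells, 49.7 for the further constant regions, 263 for receptor signalling, 4640 for Xbp1 partners and targets, 90.2 for T cells, 2676 for macrophages, 69174 for RPE, 1630 for endothelium, 23403 for rods and 360 for mast cells. With no division by length it was 54.4, 185, 27.0, 566, 6625, 89.6, 4744, 76797, 4018, 22770 and 461 in the same order.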
